A study of Homo sapiens with 30 samples.

Results

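PML, SP100, SP110, SP140, SP140L, DAXX and ATRX, 7 genes whose proteins form or visit PML nuclear bodies, were followed in glioblastoma cell lines kept under interferon-γ (IFN-γ) for weeks. The genes were taken by symbol, and each of the 7 had a row among the 61471 genes of both expression tables. All 7 reached the mean of 0.5 TPM (a transcript level scaled by gene length and library total) that a gene needed in a line to be tested.

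PML nuclear bodies are round structures in the nucleus, built as a shell of PML protein that is held together by conjugated SUMO, a small ubiquitin-like protein. SP100 is the other constant component, and both genes are known targets of interferons, which enlarge the bodies and use them against DNA viruses. DAXX is drawn to the bodies through SUMO and works with ATRX, a chromatin remodeller lost in many lower-grade gliomas, to place the histone variant H3.3 in silent chromatin. SP110, SP140 and SP140L are relatives of SP100 that carry chromatin-reading domains and are known above all from leukocytes.

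The study compared U87-MG and U251-MG, established human glioblastoma lines that the labels call wild type. The groups of each line were Untreated (no IFN-γ, labelled as collected on day 3), D3, D14 and D28 (3, 14 and 28 days of IFN-γ) and D28WO (14 days of IFN-γ, then 14 days of washout, collected on day 28), with 3 libraries a group and 30 in all. The treatment protocol gives 1 µg/mL of human IFN-γ, a dose that the study's own text states differently, and that text also places the Untreated collection at the start of the course, so whether Untreated is matched in time to D3 is unclear. Replicates were separate culture preparations of a line, and the lines were not authenticated anew. A pair of U87 columns that share one name was left out, so U87 has 2 libraries each for D3 and D14, which leaves 13 libraries of U87 and 15 of U251. The lines were scaled in separate tables and were not tested against each other.

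The interferon reference genes did not follow the labelled exposure in every group. GBP1, an interferon-induced GTPase, averaged 35.9 ± 4.19 TPM in the 3 Untreated U87 libraries (± SD), 225 ± 21.9 in the 2 of D3, 34.2 ± 3.46 in the 2 of D14, 251.2 ± 6.12 in the 3 of D28 and 221 ± 9.60 in the 3 of D28WO. IRF1, a transcription factor of the IFN-γ response, was likewise low at D14 of U87, at 134 and 109.8 TPM, within or below the 130.1 to 136 TPM of Untreated. By these 2 genes D14 of U87 lay at the Untreated level and D28WO of both lines near the level of D28, with IRF1 at 457 to 545 TPM in U87 and 588 to 663 TPM in U251 after 14 days without IFN-γ by the labels. At D28 IRF1 was at 443 to 539 TPM in U87 and 559 to 674 TPM in U251. GBP1 of U251 was at 456 to 501 TPM at D28 and 460.1 to 471 TPM at D28WO. Of the 8 reference genes 0 passed the threshold at D14 of U87, and STAT2 was higher there on the adjusted p alone (59.7 against 42.0 TPM, 0.50, adjusted p = 0.0100). SP140 of U251 differed between D28 (24.2 TPM) and D28WO (2.07 TPM). Whether the response of the cells or a fault in the labels lies behind this cannot be told apart here, so every D14 and D28WO value is that of the libraries labelled so. In U251 D14 lay between, with GBP1 at 141 to 156 TPM against 44.4 to 49.9 TPM in Untreated and 413 to 487 TPM at D3. Of the 8 glial and glioma markers VIM led in most groups, SOX2 stayed below 1 TPM in every U87 library and OLIG2 was at 0 in all Untreated U251 libraries. Of the 10 leukocyte markers CD3E, MS4A1 and SPI1 were below 1 TPM in every library of both lines, while the list summed to 13.5 to 62.7 TPM in U87, with CSF1R the highest in every group, and to 2.87 to 13.8 TPM in U251. In U251 the summed glial markers were lower in every IFN-γ group (1574 to 3050 TPM) than in Untreated (3800 to 3879 TPM), while in U87 GFAP (log2 fold change 1.38) and S100B (1.06) passed the threshold upward at D28 and GFAP (1.45) and OLIG2 (1.78) at D28WO. On the adjusted p alone 3 of the 7 tested markers were higher (28.6% of all genes) and 3 lower (13.4%) at D28WO of U87. Their median log2 fold change there was -0.12, and NES averaged 23.2 TPM against 41.0 in Untreated. The part of these markers in the results was not tested. Against Untreated, the median log2 fold change over the 22918 genes tested in U87 was 0.20 (D3), 0.15 (D14), 0.19 (D28) and 0.25 (D28WO), and over the 23667 of U251 it was 0.13, 0.096, 0.16 and 0.015. Since the depth of the libraries is unknown from TPM, no lowest detectable level can be given.

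In U251 SP110 passed the threshold upward against Untreated in all 4 groups, PML and SP100 did at D3, D28 and D28WO, SP140L at D3 and D28, and SP140 at D28. In U87 SP140 alone passed the threshold, at D28 and at D28WO, and the latter call was lost under other scalings (0.64 and 0.90) and is 1 of 7 genes where 12.8% of all genes passed. No gene passed at D3 or D14 of U87. DAXX and ATRX passed the threshold in no comparison of either line. The threshold was an absolute log2 fold change over 1 together with an adjusted p under 0.05 (limma, Benjamini-Hochberg over all genes of the line).

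**Figure D1:**
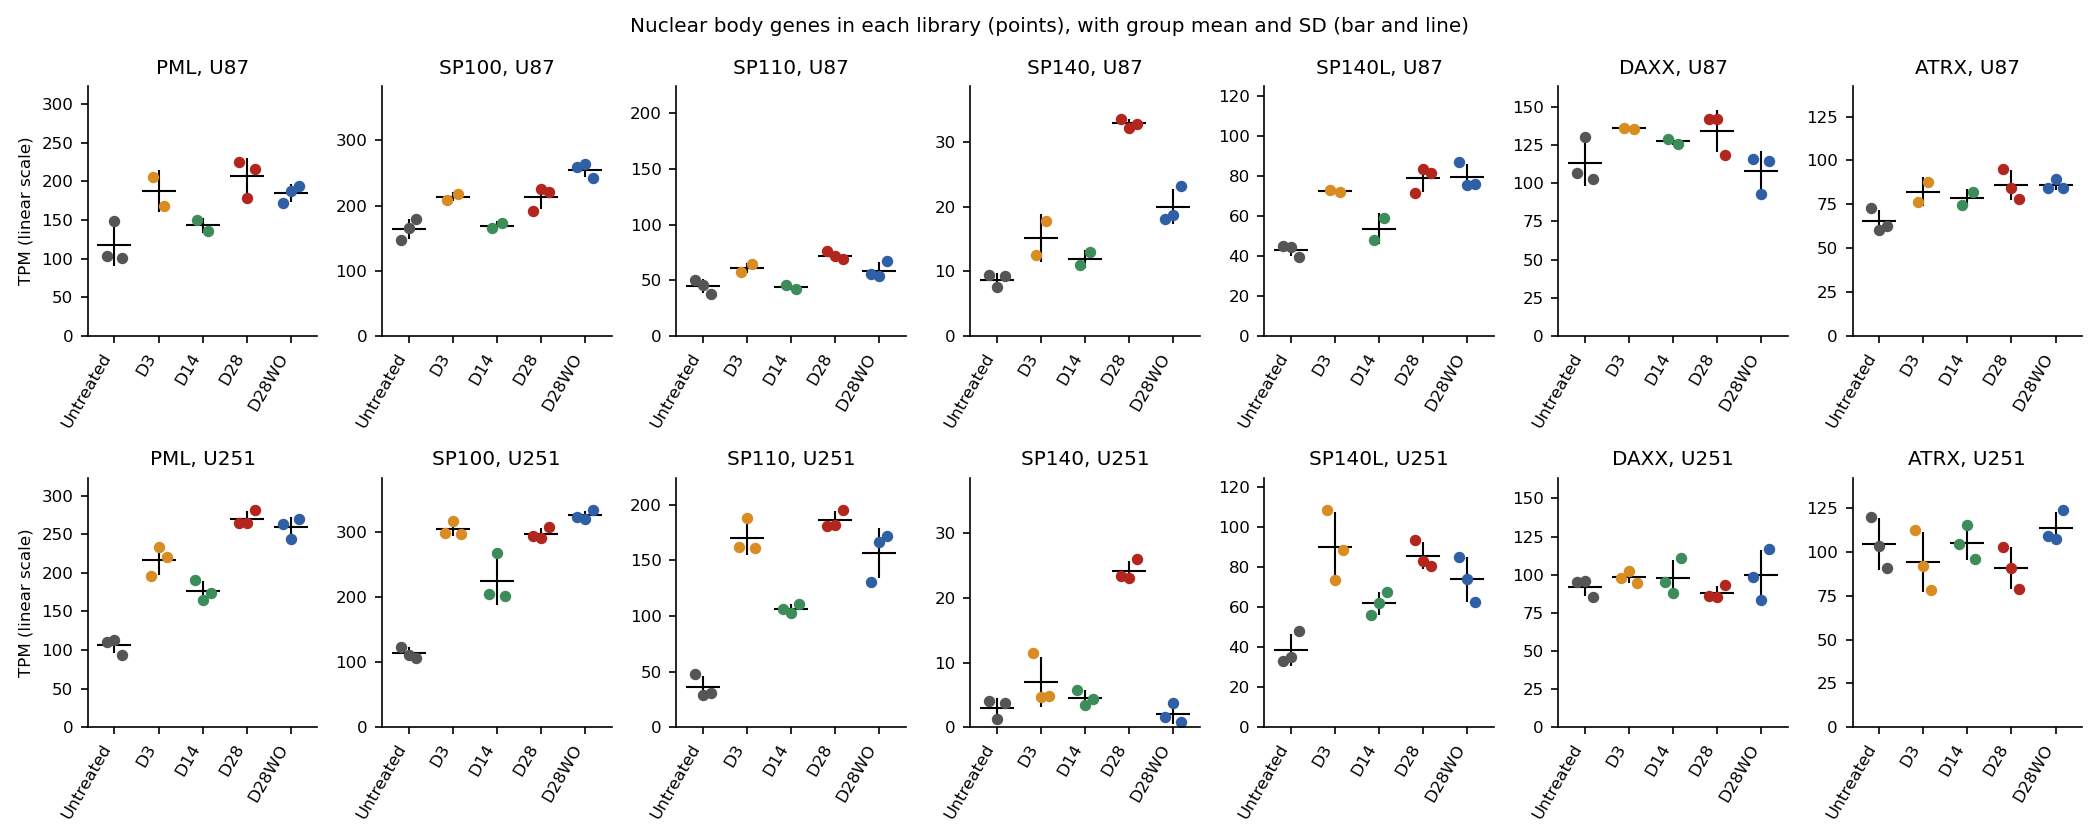
TPM of each gene (y axis, linear, starting at 0, on the same range for a gene in both lines) in every library of the 5 groups (x axis), U87 above and U251 below, with the mean as a bar and the SD as a line. SP140 stands highest at D28 in both lines, at 32.1 to 33.6 TPM in U87 and 23.1 to 26.0 TPM in U251, while DAXX and ATRX keep to a narrow range.

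PML, the gene of the shell protein, measured 103, 149 and 100.4 TPM in the 3 Untreated U87 libraries, 206 and 168 at D3, 149.7 and 136 at D14, 224, 179 and 216 at D28, and 171, 188 and 194 at D28WO. The D3, D28 and D28WO libraries all lay above Untreated, whereas those of D14 overlapped it through the highest Untreated library. The log2 fold changes against Untreated were 0.68 ± 0.16 (SE) at D3 (adjusted p = 0.0151), 0.30 ± 0.16 at D14 (0.285), 0.83 ± 0.14 at D28 (0.00218) and 0.67 ± 0.14 at D28WO (0.00298). PML of U87 thus stayed under the fold limit in all groups, and only without the second Untreated library did D28 pass it, at 1.01. In U251 PML measured 110.3, 113 and 94.2 TPM in Untreated, 196, 234 and 221 at D3, 191, 165 and 174 at D14, 264, 264 and 281 at D28, and 263, 244 and 269.6 at D28WO. Every library with IFN-γ in its history was above every Untreated one. PML rose by 1.03 ± 0.082 at D3 (adjusted p = 3.4e-07), 1.35 ± 0.082 at D28 (2.0e-08) and 1.28 ± 0.082 at D28WO (5.5e-08), and stood at 0.73 ± 0.082 at D14 (3.2e-05). The D3 call was close to the fold limit, with 0.92 under median-ratio size factors, 0.94 without the third Untreated library and 0.97 without the second D3 library.

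SP100, the second constant component, measured 147, 165 and 179 TPM in Untreated U87, 209 and 218 at D3, 165 and 174 at D14, 192, 225 and 221 at D28, and 259.6, 264 and 242 at D28WO. Its D14 libraries sat inside the Untreated range and its washout libraries were the highest of the course. The log2 fold change was 0.38 ± 0.093 at D3 (adjusted p = 0.0168), 0.37 ± 0.083 at D28 (0.00809) and 0.64 ± 0.083 at D28WO (9.9e-05), and with median-ratio size factors the values at D3 and D28 were 0.19 (0.378) and 0.18 (0.312). D14 gave 0.051, and -0.13 under those size factors. In U251 SP100 measured 124, 111 and 107 TPM in Untreated, 299, 317 and 297 at D3, 205, 267 and 201 at D14, 294, 290.2 and 307 at D28, and 323, 320.5 and 333 at D28WO. The groups with IFN-γ in their history did not overlap Untreated. SP100 rose by 1.41 ± 0.089 at D3 (3.3e-08), 1.38 ± 0.089 at D28 (3.7e-08) and 1.51 ± 0.089 at D28WO (2.4e-08). At D14 its 0.96 ± 0.089 (6.2e-06) lay just under the fold limit and crossed it, at 1.02 to 1.03, on leaving out the first Untreated, the first D14 or the third D14 library.

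SP110, SP140, SP140L and SP100 lie next to one another on chromosome 2, in that order. By GENCODE 44 (GRCh38) SP110 (ENSG00000135899) occupies chr2:230165186-230225729 on the minus strand and SP140 (ENSG00000079263) chr2:230203110-230313215 on the plus strand, so that they overlap by 22620 bases on opposite strands. SP140L (ENSG00000185404, chr2:230327184-230403732) and SP100 (ENSG00000067066, chr2:230415942-230545606) follow on the plus strand. The sources used here do not say whether reads were counted by strand, so reads from the overlap of SP110 and SP140 cannot be told apart. As a measure of shared reads, 7.62% of the 100-base words in SP140 transcripts also occur in SP140L, and 1.13% occur in SP110 on either strand. Of the words of SP110, 13.8% occur in a further overlapping GENCODE gene (ENSG00000225963), and PML and DAXX share 2.85% and 9.34% with an overlapping gene each. ATRX shared none of its words.

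**Figure D2:**
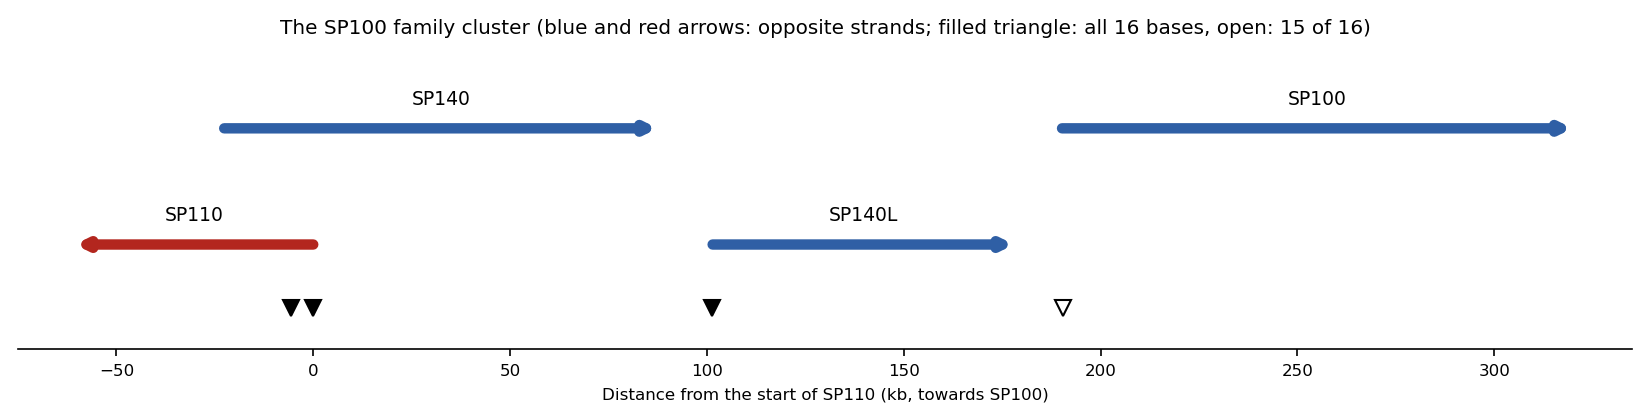
The 4 genes of the cluster as arrows along the distance from the start of SP110 (x axis, kb), with triangles below where the shared 16-base run, or a form with 15 of its 16 bases, occurs. SP110 and SP140 point away from each other over an overlap of 22620 bases, and each full or near run lies by a RefSeq start, which for 1 of them is an inner start within SP110 and SP140 as drawn.

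These neighbours also share a stretch of promoter sequence, shown because SP110, SP140, SP140L and SP100 all passed the threshold at D28 of U251, although SP140 had an adjusted p above 0.05 in the other groups of that line. RefSeq promoter windows (GRCh38.p14, 250 bases before to 50 after a start) were at hand for SP110 and SP100 with 2 starts each and for SP140 and SP140L with 1, and not for PML, DAXX or ATRX. The run TTTCACTTTTCTTTTC, found by comparing the windows of these genes with one another, occurs in 4 of 35116 windows on either strand, all of them in SP110, SP140 or SP140L. SP100 has 15 of its 16 bases. In the sites below the 16 positions are in capitals, and each is 30 bases long, read 5′ to 3′.
SP110 and SP140, shared between their starts, chr2:230225719-230225748, plus strand: taggcaaTTTCACTTTTCTTTTCctctttg
SP110, inner start, chr2:230220013-230220042, minus strand: cgaaaacTTTCACTTTTCTTTTCtcggaag
SP140L, chr2:230327099-230327128, plus strand: taaatacTTTCACTTTTCTTTTCcccattt
SP100, chr2:230416130-230416159, plus strand: taaatacTTTCACTTCTCTTTTCcccattt

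The site between SP110 and SP140 lies 105 to 90 bases before the outer start of SP110 and reaches from 10 bases before to 5 bases after the RefSeq start of SP140. GENCODE extends SP140 further upstream, across the end of SP110 that holds its starts. On the opposite strand the run holds 2 copies of AANNGAAA, the core that interferon regulatory factors recognise, which 22.8% of all windows hold at least once. SP100's site holds 1 copy of that core. The core of the interferon-stimulated response element, GAAANNGAA, was in no window of these genes (8.11% of all windows), and the gamma-activated sequence, TTCNNNGAA, was only in the window of SP110's inner start, overlapping the run there (7.66% of all windows). Both strands were searched, and a match is a description of the letters only. The windows of SP140L and of SP100's first start are near copies, with 253 of 272 aligned bases identical, which includes their sites above.

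SP110, a nuclear body protein whose loss causes an immunodeficiency with liver disease, measured 50.3, 46.1 and 37.5 TPM in Untreated U87, 57.7 and 64.3 at D3, 45.3 and 41.9 at D14, 75.9, 71.9 and 68.8 at D28, and 55.2, 53.8 and 67.1 at D28WO. The D14 libraries were within the Untreated range, and the other groups were above it. The log2 fold change was 0.45 ± 0.13 at D3 (adjusted p = 0.0370), 0.69 ± 0.12 at D28 (0.00184) and 0.39 ± 0.12 at D28WO (0.0186), and with median-ratio size factors the D3 and D28WO values were 0.26 (0.123) and 0.16 (0.218). The D3 call also ended in the replicate block (0.0515) and on leaving out any of 4 of the 5 libraries (up to 0.188). In U251 SP110 measured 47.7, 29.2 and 30.7 TPM in Untreated, 162, 188 and 161 at D3, 106, 103 and 111 at D14, 181, 182 and 195 at D28, and 131, 167 and 172 at D28WO. The lowest of the later libraries was more than 50 TPM above the highest Untreated library. SP110 rose by 2.25 ± 0.15 at D3 (5.5e-08) and 1.58 ± 0.15 at D14 (7.7e-06), and by 2.38 ± 0.15 and 2.12 ± 0.15 at D28 (2.8e-08) and D28WO (1.5e-07). It was the only one of the 7 genes past the threshold in all 4 comparisons of U251 with Untreated.

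SP140, known as a chromatin reader of macrophages and B cells, was the least abundant of the 7 in TPM. In U87 it measured 9.34, 7.49 and 9.19 TPM in Untreated, 12.5 and 17.7 at D3, 10.9 and 12.9 at D14, 33.6, 32.1 and 32.8 at D28, and 18.1, 18.8 and 23.1 at D28WO. Each later group lay above Untreated without overlap, and D28 lay far above the rest. SP140 rose by 1.81 ± 0.16 at D28 (adjusted p = 1.2e-05) and 1.11 ± 0.16 at D28WO (0.000182), against 0.72 ± 0.18 at D3 (0.0175) and 0.42 ± 0.18 at D14 (0.182). The D3 value was 0.30 (0.381) under quantile normalization and 0.54 (0.0651) under median-ratio size factors, and its adjusted p was 0.138 with only the compared groups in the fit. Other scalings ended the D28WO call, at 0.64 under quantile normalization and 0.90 under median-ratio size factors. In U251 SP140 measured 4.09, 1.31 and 3.69 TPM in Untreated, 11.5, 4.63 and 4.91 at D3, 5.81, 3.42 and 4.42 at D14, 23.4, 23.1 and 26.0 at D28, and 1.62, 3.75 and 0.831 at D28WO. It stood out at D28 only, and after washout its libraries overlapped Untreated. SP140 rose by 2.72 ± 0.39 at D28 (8.6e-05), while D3 gave 0.97 ± 0.39 (0.0647), with 1 library well above the other 2, D14 gave 0.52 ± 0.39 (0.394) and D28WO gave -0.43 ± 0.39 (0.483). At these levels its spread was the widest of the 7, with a 95% interval of -1.27 to 0.42 at D28WO.

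SP140L, the shortest gene of the cluster but for SP110, measured 45.1, 44.4 and 39.4 TPM in Untreated U87, 73.0 and 72.0 at D3, 48.1 and 59.0 at D14, 71.2, 83.7 and 81.5 at D28, and 86.8, 75.3 and 75.7 at D28WO. Even the D14 libraries were above Untreated here. The log2 fold change was 0.74 ± 0.11 at D3 (adjusted p = 0.00128), 0.31 ± 0.11 at D14 (0.135), 0.86 ± 0.10 at D28 (0.000146) and 0.87 ± 0.10 at D28WO (4.6e-05). SP140L kept an adjusted p under 0.05 at D3, D28 and D28WO of U87 under every alternative tried. In U251 it measured 33.0, 35.3 and 48.0 TPM in Untreated, 109, 73.4 and 88.6 at D3, 56.2, 62.4 and 67.8 at D14, 93.8, 83.1 and 80.8 at D28, and 85.2, 74.1 and 62.5 at D28WO. It rose by 1.20 ± 0.16 at D3 (4.1e-05) and 1.14 ± 0.16 at D28 (6.3e-05), with 0.68 ± 0.16 at D14 (0.00794) and 0.92 ± 0.16 at D28WO (0.000622). The D28WO value crossed the fold limit without the third Untreated library (1.08) or the third D28WO library (1.04).

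**Figure D3:**
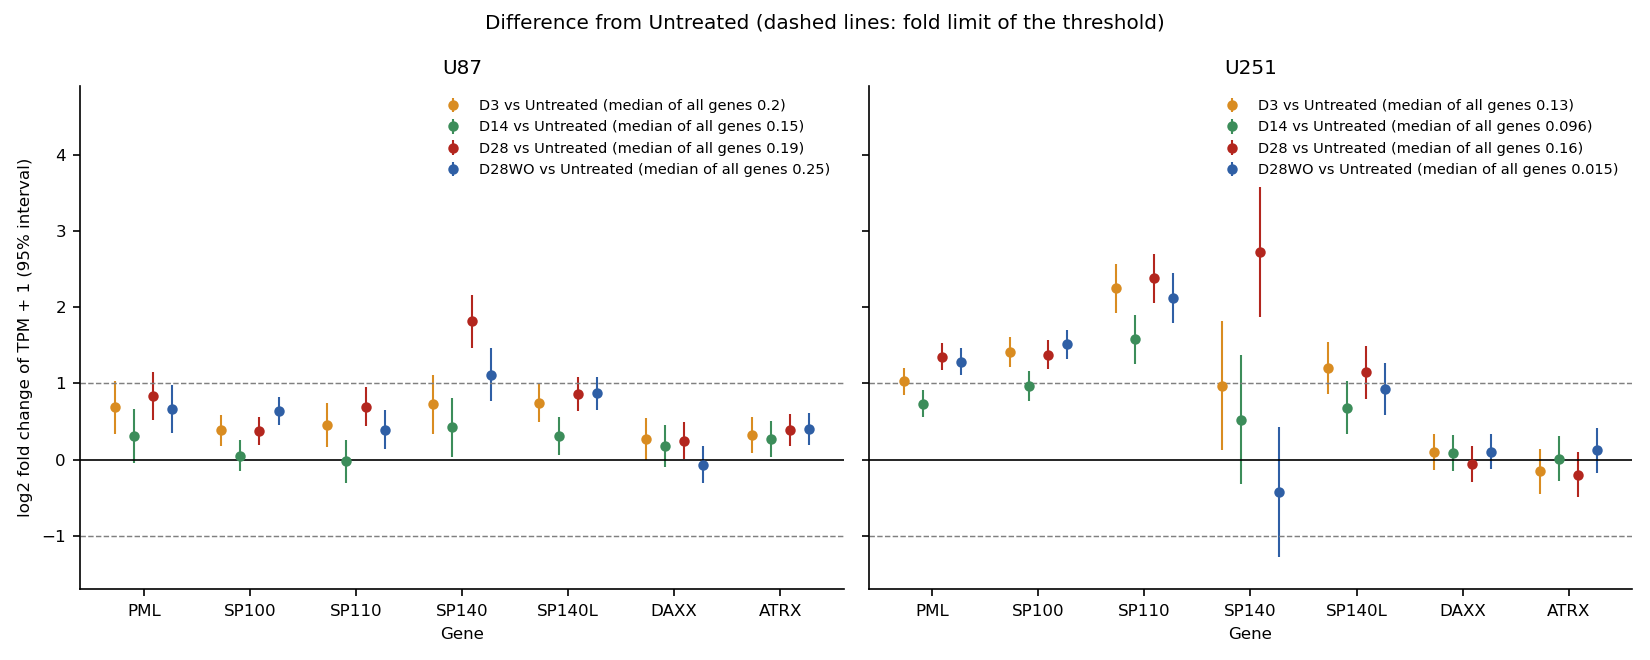
Fitted log2 fold change of TPM + 1 against Untreated (y axis, points with 95% intervals) for the 7 genes (x axis) at D3, D14, D28 and D28WO of U87 (left) and U251 (right), with dashed lines at the fold limit and the median over all genes in the legend. The comparisons of a line share their Untreated libraries. SP110 of U251 lies between 1.58 and 2.38 in all groups, SP140 spans -0.43 to 2.72 there, and DAXX and ATRX of both lines stay within the dashed lines, with ATRX of U87 at 0.26 to 0.40.

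DAXX, the H3.3 chaperone, had a narrow range throughout. In U87 it measured 106, 130.1 and 103 TPM in Untreated, 136 and 136 at D3, 129 and 126 at D14, 142, 142 and 118 at D28, and 116, 92.9 and 115 at D28WO. Groups overlapped apart from D3, and the log2 fold changes were 0.27 (95% interval -0.0022 to 0.54), 0.18 (-0.095 to 0.45), 0.25 (0.0034 to 0.49) and -0.068 (-0.31 to 0.18) in that order, with adjusted p-values of 0.161, 0.430, 0.132 and 0.656. With median-ratio size factors the values were 0.074, -0.0030, 0.054 and -0.30, the last with an adjusted p of 0.0270. Without the second Untreated library D28 gave 0.35 (adjusted p = 0.0438). In U251 DAXX measured 85.1 to 95.7 TPM in Untreated and 83.6 to 117 TPM over all later libraries. The intervals there were -0.14 to 0.33 at D3, -0.14 to 0.32 at D14, -0.29 to 0.17 at D28 and -0.13 to 0.34 at D28WO, and none reaches a doubling or a halving of TPM.

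ATRX, the remodeller that works with DAXX, was detected at 60.4 TPM or more in every library, so both lines express it. In U87 it measured 72.8, 60.4 and 62.6 TPM in Untreated, 76.3 and 87.9 at D3, 74.8 and 82.0 at D14, 94.9, 84.4 and 78.3 at D28, and 84.2, 89.4 and 84.3 at D28WO. All later libraries were above the Untreated ones. The log2 fold changes were 0.33 ± 0.11 (adjusted p = 0.0578), 0.26 ± 0.11 (0.173), 0.39 ± 0.097 (0.0138) and 0.40 ± 0.097 (0.00624), of which 0.13, 0.12, 0.20 and 0.15 lay above the median of all genes. With median-ratio size factors D28 and D28WO were at 0.20 (0.189) and 0.16 (0.241). The D3 value was 0.37 (0.0418) in the replicate block and 0.41 (0.0329) without the first Untreated library. In U251 ATRX measured 120.1, 103 and 90.7 TPM in Untreated and 78.6 to 124 TPM in the later libraries, with log2 fold changes between -0.20 and 0.12 and adjusted p-values of 0.268 or more.

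The levels in Untreated cells can be ordered within a line. In U87 SP100 led (164 ± 15.99 TPM), followed by PML (117 ± 27.1) and DAXX (113 ± 14.8), whose libraries overlapped, then ATRX (65.2 ± 6.62), SP110 (44.7 ± 6.51) and SP140L (43.0 ± 3.10), and last SP140 (8.67 ± 1.03). SP110 and SP140L overlapped as well, and the lowest SP100 library (147 TPM) was just under the highest of PML (149 TPM). In U251 SP100 (114 ± 8.77), PML (106 ± 10.3), ATRX (105 ± 14.7) and DAXX (91.9 ± 5.95) overlapped with the next in the order, as did SP140L (38.8 ± 8.10) and SP110 (35.9 ± 10.3), and SP140 (3.03 ± 1.502) lay below all. After 28 days of IFN-γ the U251 order was SP100 (297 ± 8.81), PML (270.0 ± 9.74), SP110 (186 ± 7.85), ATRX (90.9 ± 12.1), DAXX (88.2 ± 4.34), SP140L (85.9 ± 6.93) and SP140 (24.2 ± 1.61). SP110 had moved from beneath DAXX and ATRX to above them without overlap, and DAXX, ATRX and SP140L overlapped.

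Counted over the 7 genes in U87, none passed the threshold upward at D3 (5.85% of all genes tested did), none at D14 (1.89%), and SP140 alone at D28 (6.77%) and at D28WO (12.8%). The share of all genes depends on the scaling: at D28WO of U87 2933 genes were past the threshold upward and 485 downward, against 1332 and 1226 with quantile normalization. With the adjusted p as the only criterion the counts were 5 at D3 (12.4% of all genes), 0 at D14 (4.14%), 6 at D28 (17.2%) and 6 at D28WO (28.6%). With median-ratio size factors the counts were 4 at D28, and 4 higher with DAXX lower at D28WO, and with only the compared groups in the fit there were 4 at D28. The D3 count was 2 without either D3 library, 3 without the third Untreated library, 1 with median-ratio size factors and 1 with only the compared groups in the fit, and SP140L remained in each case. Other settings raised the counts. Without the first Untreated library D3 had 6 genes, ATRX among them, and without the second Untreated library D28 had 7, with DAXX. In U251 4 genes passed the threshold at D3 (9.72% of all genes), 1 at D14 (4.72%), 5 at D28 (11.9%) and 3 at D28WO (4.07%). On the adjusted p alone the numbers were 4 (24.9%), 4 (13.8%), 5 (25.9%) and 4 (14.3%), and none of these 4 changed when any single library was left out. No gene of the 7 passed the threshold downward against Untreated. The 4 comparisons of a line share their Untreated libraries and are not independent.

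D14 was also compared with D3. In U251 the log2 difference was -0.29 for PML, -0.45 for SP100, -0.67 for SP110 and -0.52 for SP140L (adjusted p = 0.0178, 0.00224, 0.00492 and 0.0287), which makes 4 genes lower on the adjusted p where 12.6% of all genes were. These 4 changes were all under the fold limit, and PML and SP140L had an adjusted p above 0.05 on leaving out any of 4 of the 6 libraries, up to 0.0761 and 0.126. With only the compared groups in the fit 1 gene, SP110, kept its call, and SP100 had an adjusted p of 0.0581. SP140 gave -0.45 with an adjusted p of 0.452 and overlapping libraries. In U87, with 2 libraries against 2, PML, SP100, SP110 and SP140L gave log2 differences of -0.38, -0.33, -0.47 and -0.44. Their adjusted p-values were 0.0693 to 0.285. SP140, DAXX and ATRX gave -0.30, -0.093 and -0.064 (0.461, 0.789 and 0.847). Thus 0 genes were lower on the adjusted p (3.32% of all genes). With quantile normalization SP100, SP110 and SP140L were lower on the adjusted p there (3 genes), and with median-ratio size factors SP110 alone was.

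Between D14 and D28, under continued IFN-γ, SP140 changed most. It rose by 1.39 ± 0.18 in U87 (adjusted p = 0.000591) and by 2.20 ± 0.39 in U251 (0.00122), and was the single gene of the 7 past the threshold in each line (1.78% of all genes in U87, 4.23% in U251). On the adjusted p alone 3 genes of U87 were higher at D28 (2.94% of all genes), SP110, SP140 and SP140L. That count was 1 without the second D14 library, and 2 without the third D14 library or without either the second or the third D28 library, and 4 with SP100 on leaving out the first D28 library. In U251 PML (0.61), SP100 (0.42), SP110 (0.80) and SP140 were higher (4 genes, 11.3% of all genes), and SP140L gave 0.46 with an adjusted p of 0.0556. With only the compared groups in the fit SP100 had an adjusted p of 0.0617 and SP140L one of 0.0221, and SP140L was also under 0.05 with the filter at 1 TPM (0.0490) and with quantile normalization (0.0416). DAXX and ATRX gave values from -0.21 to 0.13 over both lines.

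The washout comparison asks what remained at day 28 when IFN-γ was withdrawn at day 14 by the labels, although IRF1 and GBP1 stood near the level of D28 in the libraries labelled D28WO. In U251 SP140 was 24.2 ± 1.61 TPM with continued IFN-γ and 2.07 ± 1.51 TPM after washout (n = 3 each), and fell by 3.15 ± 0.39 on the log2 scale (adjusted p = 5.1e-05). It was the only gene of the 7 to pass downward there (8.14% of all genes with the fold limit, 18.8% on the adjusted p alone). PML (-0.062, 95% interval -0.24 to 0.12), SP100 (0.13, -0.060 to 0.33), SP110 (-0.26, -0.58 to 0.065) and SP140L (-0.22, -0.57 to 0.12) had intervals that include 0 and that leave out a halving. The washout libraries of SP100 were all above those of D28 (adjusted p = 0.298, and 0.0497 with only the compared groups in the fit). Those of SP110 were all below (0.224). In U87 SP140 was lower after washout as well, at 19.98 ± 2.73 against 32.9 ± 0.735 TPM, a difference of -0.70 ± 0.16 (0.0102) and the single gene lower on the adjusted p (8.44% of all genes). SP100 was higher, by 0.27 ± 0.083 (0.0447), again 1 gene (9.90% of all genes), but its adjusted p exceeded 0.05 on leaving out any of the 6 libraries. PML (-0.16) and SP140L (0.0094) had intervals that include 0, whereas SP110 (-0.30, adjusted p = 0.102) and DAXX (-0.31, 0.0722) were lower in all washout libraries without passing, and had adjusted p-values of 0.0300 and 0.0272 with median-ratio size factors. In U251 the washout libraries of ATRX were all above those of D28, by 0.32 (adjusted p = 0.0977), and by 0.41 (0.0266) with median-ratio size factors.

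**Figure D4:**
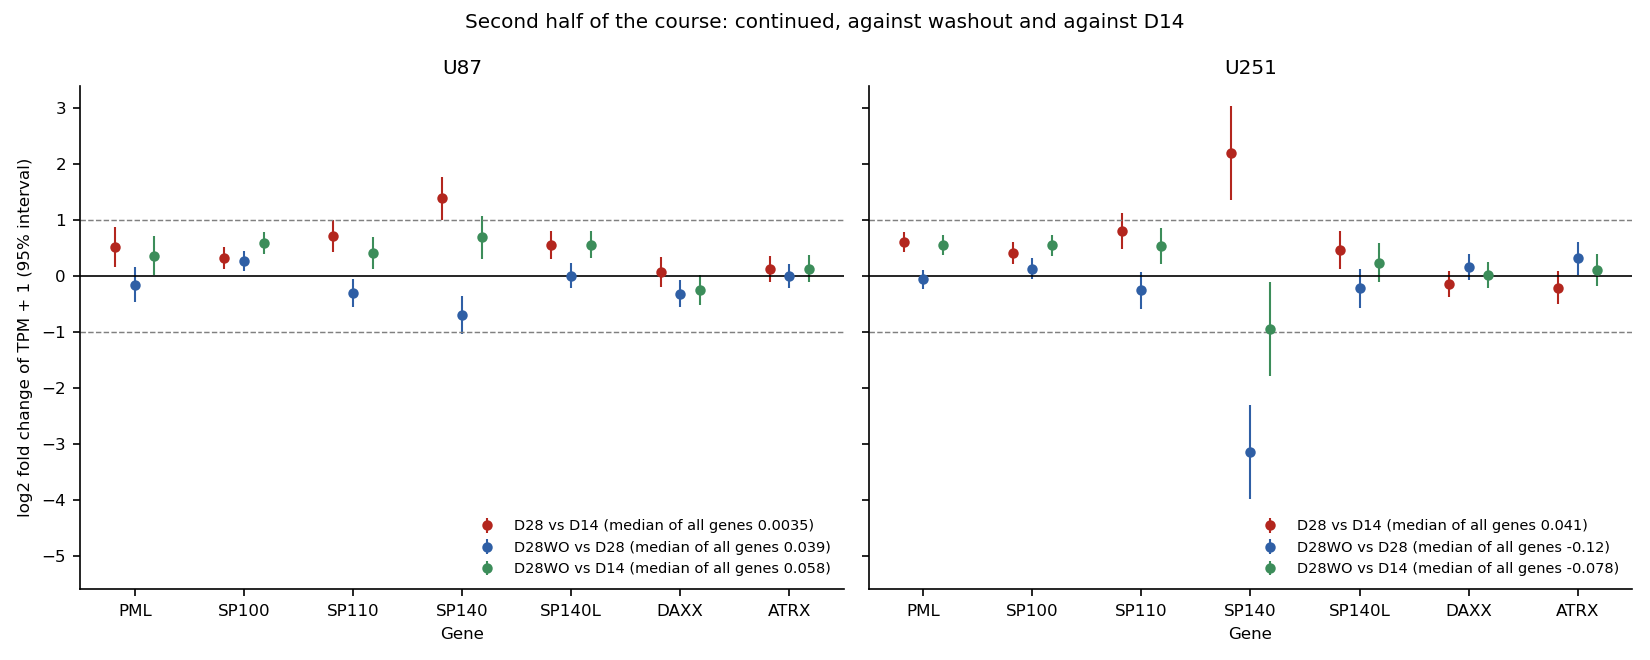
Fitted log2 fold change of TPM + 1 (y axis, points with 95% intervals) for the 7 genes (x axis) of D28 against D14, D28WO against D28 and D28WO against D14, U87 on the left and U251 on the right, with dashed lines at the fold limit. In U251 SP140 lies at 2.20, -3.15 and -0.95 in that order while the other genes stay within the dashed lines. The comparisons share libraries with one another.

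Washout cells can also be set against the D14 group, the last before withdrawal. In U251 PML, SP100 and SP110 were higher after washout than at D14, by 0.55, 0.55 and 0.54 (adjusted p = 0.000224, 0.000459 and 0.0164), which makes 3 genes where 10.6% of all genes were higher. SP110 lost its call (adjusted p = 0.0532 to 0.0717) without the second D14, the second D28WO or the third D28WO library. SP140 gave -0.95 ± 0.39 (0.0949), and -1.32 (0.0303) without the second D28WO library, its highest. In U87 SP100 (0.59), SP110 (0.41), SP140 (0.69) and SP140L (0.56) were higher (4 genes, 14.3% of all genes), and PML gave 0.36 (0.123). Of these 4 only SP100 kept its call on leaving out each of the 5 libraries in turn, and without the second D14 library it was the only one. With quantile normalization PML was called (0.45, adjusted p = 0.0430) and SP140 was not (0.0597). With only the compared groups in the fit PML had an adjusted p of 0.0308 and SP110 one of 0.0629. The reference genes were likewise higher in the libraries labelled D28WO than in those labelled D14, in U251 at 588 to 663 against 287.5 to 321 TPM for IRF1 and at 460.1 to 471 against 141 to 156 TPM for GBP1.

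Lists of partners of the nuclear bodies were counted in the same way. Among 19 genes of the SUMO pathway, which supplies the modification that holds the bodies together, none passed the threshold against Untreated in either line. On the adjusted p alone 0 to 6 were higher, most at D3 of U251 (24.9% of all genes), and 0 to 7 were lower, most at D28 of U251 (14.7% of all genes), with list medians between -0.046 and 0.094. Of 16 residents of the bodies 1 rose at D3 and D28 of both lines, ISG20, an interferon-induced exonuclease, which is a share near or below that of all genes (5.85% and 6.77% in U87, 9.72% and 11.9% in U251). In U87 its mean was 8.88 TPM in Untreated cells, 67.2 after 3 days, 14.7 after 14, 83.7 after 28 and 65.5 after washout, with log2 fold changes of 2.84, 3.15 and 2.81 at D3, D28 and D28WO. In U251 the means were 29.1, 70.1, 31.3, 113 and 114 TPM in that order, with 1.24, 1.94 and 1.94 in the same groups. At D28WO of U87 3 of the 16 passed upward (12.8% of all genes), among them EP300, a histone acetyltransferase (1.11, adjusted p = 0.0265). On the adjusted p alone 9 of the 16 residents were higher (24.9% of all genes) and 3 lower (16%) at D3 of U251, with a median of 0.36 against 0.13 over all genes, and 8 were higher (28.6% of all genes) and 3 lower (13.4%) at D28WO of U87. Of 9 genes of the H3.3 chaperones and the histone itself only ASF1B, a histone chaperone of dividing cells, passed against Untreated, and fell by 1.14 at D28WO of U87 (3.5e-06), where 2.12% of all genes passed downward. On the adjusted p alone 2 of the 9 were higher and 4 lower there. Of 12 H3K9 methylation and heterochromatin genes, to which the DAXX and ATRX complex couples, none passed, and the list medians ran from -0.43 to 0.091. The lowest was at D28WO of U87, where 6 of the 12 were lower on the adjusted p (13.4% of all genes) and 3 were higher. The 7 nuclear body genes had medians of 0.45, 0.26, 0.69 and 0.64 in U87 and 1.03, 0.68, 1.35 and 0.92 in U251, beside those of all genes given above. The 8 reference genes of the interferon response had 1.60, 0.025, 1.71 and 1.73 in U87 and 1.89, 1.12, 1.79 and 2.07 in U251.

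Within a line, the genes can be described by how they vary together over the libraries. In U251 (15 libraries) PML, SP100 and SP110 had Pearson's r of 0.94 to 0.96 with one another on log2(TPM + 1), SP140 had 0.29 to 0.51 with PML, SP100, SP110 and SP140L, and DAXX had -0.46 to 0.22 with the rest. In U87 (13 libraries) SP110 and SP140, whose genes overlap, had 0.87, and PML with SP100 had 0.66. The libraries share their treatment groups, so these values describe the group pattern and carry no test. Of 20473 genes tested in both lines, those most like PML by the mean r of the lines were HLA-DMA (0.95), APOBEC3G and SERPING1 (0.94 each), those most like SP100 were DDX60, FGF2 and ADAR (0.95 to 0.96), and those most like SP110 were CMPK2, SAMD9 and SAMHD1 (0.94 to 0.96). SP140L was most like TSKU, TLR3 and APOL6 (0.92 to 0.94). SP140 had other neighbours in pattern, TEX29 (0.94), LINC02817 and PRICKLE2-DT (0.91 each). For DAXX no gene exceeded 0.70 (ZNF318), and for ATRX none exceeded 0.81 (ZBTB20).

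The genes next to them on the chromosome were looked at as well. CAB39, the next protein-coding gene 167235 bases beyond SP100, gave log2 fold changes of -0.10 to 0.14 in U87 and 0.12 to 0.38 in U251 against Untreated. SLC16A14, 96192 bases beyond SP110, was at 0.638 TPM in Untreated U87, and in U251 it rose from 3.05 to 9.42 TPM at D3 (1.37, adjusted p = 0.000594) and to 7.81 TPM at D14 (1.13, 0.00564). STOML1, whose start lies 50 bases from that of PML (chr15:73994673-74047827, plus strand) and which is read the other way, gave -0.26 to 0.32 in U251, where PML rose, and -0.97 at D28WO of U87 (0.000289). GOLGA6A, on the other side of PML, was under 3 TPM on average in all groups, and passed the threshold at D28WO of U87 (adjusted p = 0.00792), where it averaged 1.75 TPM and was listed at 0 in Untreated. Beside DAXX (chr6:33318558-33323016, minus strand), ZBTB22 was at 43.4 TPM in Untreated U251 and 22.6 at D3 (-0.90, 0.000161), and at 14.0 and 22.2 TPM in U87 (0.64, 0.0200), while DAXX gave 0.095 and 0.27. Beside ATRX (chrX:77504880-77786233, minus strand), MAGT1 gave -0.10 to 0.089 in U251 and -0.50 at D28WO of U87 (0.000540), where ATRX gave 0.40.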

How the data were processed

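RNA of U87 and U251 cells was sequenced in 30 libraries. The authors trimmed reads with Trim Galore, aligned them with STAR to GRCh38, counted them with featureCounts, and deposited TPM values in a table for each line, and how TPM was computed is not given in the sources used here. Each library sums to 1000000, so depth is unknown and the number of libraries limits the precision. No step read the 2 U87 columns that carry one name.

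In each line the genes that averaged 0.5 TPM or more were tested as log2(TPM + 1), so that fold changes of low genes are understated, with limma 3.58.1 in R 4.3.3 (lmFit, eBayes with a trend, 5 groups of a line in 1 fit, 8 contrasts, no covariate), with Benjamini-Hochberg adjustment. Errors are the SD of TPM or the SE of the fit. P-values measure the spread between these culture preparations. Fits were tested on simulated data. The authors filtered counts with edgeR and used limma-voom, which need counts, not analysed here.

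The 7 genes and the gene lists were chosen with earlier results of these data known. Genes named from a list are those past the threshold, at most 4 for a list and line by size, with IRF1, GBP1 and STAT2 of the reference genes, the 3 genes of most like pattern and the nearest protein-coding neighbours. Same-numbered libraries of different groups did not deviate together (r of -0.058 to 0.047 over 23 pairs in U87 and -0.037 to 0.048 over 30 in U251). With so few libraries a group this cannot exclude a pairing by number, and none was fitted in the main test. The study's text has the cultures split at D14 into continued treatment and washout, so D28 and D28WO may share cultures. Some genes of these lists are not reported here. Positions come from GENCODE 44 and promoter windows from RefSeq. The sharing of 100-base words was counted over GENCODE 44 transcripts on both strands. Alternatives were a pseudocount of 0.1, no filter, a filter at 1 TPM, median-ratio size factors, quantile normalization, a fit of the compared groups alone, the replicate number as a block, the adjusted p alone, and each library left out in turn.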

Additional observations from a re-analysis of the deposited data

Results flagged for a closer look

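ATRX and SP140 had log2 differences of opposite sign in the lines, with every library of one line on one side of its comparison group's mean and every library of the other line on the opposite side. The rule looks at that mean alone, so the libraries of the 2 groups can still overlap. The difference between the lines was not tested because their tables were scaled separately. For SP140 between D14 and D28WO the log2 difference was 0.69 in U87 and -0.95 in U251. For ATRX between Untreated and D28 it was 0.39 in U87 (limma, adjusted p = 0.0138) and -0.20 in U251 (0.268, with overlapping libraries). Between D3 and D14 it was -0.064 in U87 (0.847) and 0.17 in U251 (0.419), and the libraries overlapped in both lines. None of these values passed the threshold. The U87 value of ATRX at D28 was 0.20 with median-ratio size factors, and the SP140 difference had an adjusted p of 0.0132 in U87 (limma), up to 0.113 on leaving out a library, and 0.0949 in U251. Groups of 3 libraries are too small for a check of single outlying libraries.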

How the results depend on the processing

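Fits with a pseudocount of 0.1, no filter, a filter at a mean of 1 TPM, only the compared groups and the replicate block left the number of genes past the threshold in every comparison within 1.5 times its value. With the adjusted p alone the number past it in U87 was 5 at D3, 6 at D28, 6 at D28WO, 3 for D28 against D14, 2 for D28WO against D28 and 4 for D28WO against D14, and in U251 it was 4 at D14, 4 for D14 against D3, 4 for D28 against D14 and 3 for D28WO against D14. At D28WO of U87 it was 0, in place of 1, under both median-ratio size factors and quantile normalization, where the median of all genes was 0.068 and -0.019 in place of 0.25. Leaving out 1 library at a time gave 1 to 2 at D28 of U87, 1 to 2 at D14 of U251 and 0 to 1 for D28WO against D14 of U251. At D3 and at D28WO of U251 it gave 3 to 4.

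Among the comparisons with Untreated and the called ones among the others, the signs that turned belonged to values near 0 that passed the threshold under no setting. Other uncalled comparisons were not examined. Against Untreated, median-ratio size factors gave -0.13 for SP100 and -0.0030 for DAXX at D14 of U87, -0.011 and -0.0048 for DAXX at D3 and D14 of U251, and -0.081 for ATRX at D14 of U251. The replicate block gave 0.0040 for SP110 at D14 of U87. With 1 library left out the ranges were -0.022 to 0.12 for SP100 and -0.14 to 0.065 for SP110 at D14 of U87, -0.13 to 0.036 for DAXX at D28WO of U87, -0.0041 to 0.16 for DAXX and -0.085 to 0.12 for ATRX at D14 of U251, and -0.016 to 0.22 for DAXX at D28WO of U251. The cause was not tested. In the replicate block, which rests on numbers for which no pairing was seen, the genes with an adjusted p under 0.05 went from 3 to 2 for D28 against D14 and from 4 to 3 for D28WO against D14 in U87. At D3 of U87 the count stayed at 5, with SP110 out (adjusted p = 0.0515) and ATRX in (0.0418). Depth cannot be read from TPM, so the low values of SP140 in U251 have no counting interval.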

Other observations

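Some leukocyte markers were not silent in these lines. CSF1R, the receptor of macrophage colony-stimulating factor, stood at 55.2 ± 6.85 TPM in Untreated U87 and 16.9 ± 5.89 TPM at D28WO (n = 3 each), and fell by 1.69 on the log2 scale (limma, adjusted p = 9.0e-05). In U251 CD14, the lipopolysaccharide co-receptor, was at 0.569 ± 0.602 TPM in Untreated and 4.51 ± 1.32 TPM at D3, with a log2 fold change of 1.85 (adjusted p = 0.000131). SPI1, the transcription factor of myeloid cells, stayed below 1 TPM in every library.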
